A study of Mus musculus with 56 samples.

Results

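The levels of 9 genes of the nuclear interior were followed in mouse liver after dosing with LNA gapmers: Malat1 and Neat1, which make long non-coding RNAs, Nono, Sfpq and Pspc1, which encode the core proteins of paraspeckles, and Ssb, Ncl, Npm1 and Xrcc5, which encode nuclear proteins known to bind phosphorothioate oligonucleotides. A probe set was taken where the array annotation named exactly 1 gene and that gene was a member. This gave 33 probe sets for the 9 genes, of 18194 genes and 45101 probe sets on the array. An LNA gapmer is a short antisense oligonucleotide with a central stretch of DNA between flanks of locked nucleic acid, and it directs RNase H1 to cut the RNA it pairs with. The livers came from 56 male CD-1 mice, an outbred stock, that were 6 to 8 weeks old when dosing began, and each liver was hybridised to 1 Affymetrix array.

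The severely toxic sequence HTS-3 was given once and livers were taken at 8 h (n = 3) and 16 h (n = 4). HTS-3 has no 72 h group, since the mice kept for it were found dead or were killed moribund. The toxic sequence TS-2 was sampled at 8 h (n = 4), 16 h (n = 3) and 72 h (n = 4), and the non-toxic sequence NTS-1 at 8 h (n = 3), 16 h (n = 4) and 72 h (n = 3). Vehicle mice, given phosphate buffered saline (DPBS) alone, were sampled at 8, 16 and 72 h (n = 3 each). In a separate 2-week study, mice were dosed on days 1, 4, 8 and 11 and examined on day 14, with 5 mice on TS-2, 4 on NTS-1 and 10 on vehicle. Each gapmer dose was 25 mg/kg in 10 mL/kg, injected under the skin. Of the 10 mice dosed in each single-dose group, the livers put on arrays were those ranked highest for a minor hepatic hypertrophy score, so these arrays do not sample each group at random. The labels name no RNA that any of the gapmers is directed against.

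Paraspeckles are nuclear bodies that assemble on the Neat1 transcript. Nono, Sfpq and Pspc1 belong to one family of RNA-binding proteins that pair with each other, and Nono and Sfpq also act in transcription, splicing and DNA repair. Malat1 is made next to Neat1 and lies in nuclear speckles, where splicing factors are stored. Phosphorothioate oligonucleotides bind proteins as well as RNA, and paraspeckle proteins, nucleolin (Ncl), nucleophosmin (Npm1), the La protein (Ssb) and the Ku80 subunit (Xrcc5) are among the nuclear proteins they are known to bind in cultured human cells.

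In GRCm38.p6, Neat1 lies on chromosome 19 at 5824708 to 5845480 and Malat1 on the same chromosome at 5795690 to 5802672, with 22035 bases between them. Pspc1 lies on chromosome 14, Nono on X, Sfpq on 4, Ssb on 2, Npm1 on 11, and Ncl and Xrcc5 both on 1. The RefSeq promoter table matched 7 of the 9 members. Neat1 and Npm1 were the others. The 250 bases before the annotated start of 3 members are shown, since Malat1, Pspc1 and Ncl carry the changes described first below. All 3 genes lie on the minus strand. They are printed 5′ to 3′ in the direction of transcription, and capitals mark the letters CCAAT.
Malat1, chr19:5802673-5802922: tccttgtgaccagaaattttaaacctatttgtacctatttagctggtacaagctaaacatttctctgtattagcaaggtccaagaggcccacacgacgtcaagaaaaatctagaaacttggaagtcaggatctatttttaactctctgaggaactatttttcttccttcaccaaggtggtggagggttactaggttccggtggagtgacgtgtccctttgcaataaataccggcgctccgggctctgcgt
Pspc1, chr14:56778319-56778568: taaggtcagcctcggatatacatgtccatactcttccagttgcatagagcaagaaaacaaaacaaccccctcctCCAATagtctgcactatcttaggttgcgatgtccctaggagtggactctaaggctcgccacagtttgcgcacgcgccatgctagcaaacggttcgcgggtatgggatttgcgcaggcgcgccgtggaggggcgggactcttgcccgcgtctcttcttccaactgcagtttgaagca
Ncl, chr1:86359456-86359705: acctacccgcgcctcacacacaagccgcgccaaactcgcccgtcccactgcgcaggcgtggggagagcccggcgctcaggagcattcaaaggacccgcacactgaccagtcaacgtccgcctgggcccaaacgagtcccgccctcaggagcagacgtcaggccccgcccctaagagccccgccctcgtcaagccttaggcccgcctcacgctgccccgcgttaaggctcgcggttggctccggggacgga
The Malat1 stretch had 44% G and C, the Pspc1 stretch 54.4% and the Ncl stretch 69.6%. Both strands were searched for CCAAT, for CACGTG (the E-box), for the core of the interferon-stimulated response element and for TGACGTCA. The Pspc1 stretch held 1 CCAAT match, 176 bases before the start, and the Malat1 and Ncl stretches held none of the 4 motifs. Of all 32851 promoters in the table, 33.8% held CCAAT, 6.02% CACGTG, 2.98% the interferon core and 1.55% TGACGTCA. Among the other matched members, Sfpq held 4 CCAAT matches, Nono 2, Xrcc5 1 together with 1 CACGTG match, and Ssb none of the 4 motifs. These matches describe letters in a window and not sites in use.

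The deposited values are intensities on a linear scale, and depth in the sense of reads does not apply. They measure RNA, and no protein was measured. The number of arrays limits the precision. After a single dose the lowest value on every array was 4.56, at which 44.1% to 47.3% of its probe sets lay, whereas the lowest value of the 2-week arrays was 6.1 to 6.92, so that the studies were fitted apart and no level was compared between them. Testing was limited to probe sets with 3 or more arrays of the study at or above 32, which left 14324 probe sets in the single-dose study and 23261 in the 2-week study. Of the member probe sets, 23 passed in the single-dose study and 30 in the 2-week study. Every member had at least 1 probe set tested in each. The p-values come from limma, adjusted by the Benjamini-Hochberg method over all probe sets tested in a comparison, and a probe set is called where the adjusted p is under 0.05. Gene-level changes are log2 differences of geometric means ± SE.

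Certain arrays need naming first. In the vehicle group at 16 h, replicate 1 had an S100a8 intensity of 16166.14, against 163.61 and 351.93 in the other mice, and its summed neutrophil markers reached 28562.8, against 246.99 and 497.42. In the HTS-3 group at 8 h, replicate 3 is labelled 16 h in its description but 8 h in its title and source, and was kept at 8 h. In the single-dose study, 4392 of the 14324 tested probe sets (30.7%) carried one exactly repeated value on 5 or more arrays, among them 8 of the 23 member probe sets, whereas this held for 0.602% of probe sets and no member in the 2-week study. The spread of such a probe set is not that of independent measurements. All 8 hepatocyte markers were measured, and their summed intensity on single-dose arrays at 16 h was 509746 to 565071 in HTS-3 mice, against 479575 to 524003 in vehicle mice.

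Malat1 was lower in TS-2 livers after 2 weeks, and the genes of the protein members were mostly higher. In whole liver, fewer cells of a type and less RNA per cell cannot be told apart. Of the 30 member probe sets tested, 4 of Malat1 would not have been tested without the arrays of the brighter group and are set aside. Of the 26 left, 13 were higher and 4 were lower than vehicle. Of all probe sets, with none set aside in this way, 36.6% were called, 22.7% higher and 13.9% lower. The median log2 change was 0.41 over these 26, 0.33 over all 30 and -0.00 over all probe sets. The 6 genes Nono, Pspc1, Ssb, Ncl, Npm1 and Xrcc5 had only higher calls, Malat1 only lower ones, Sfpq both, and Neat1 none. In the other 9 comparisons with vehicle, 3 calls were made in 214 member tests (1.40%), near the 2.45% over all probe sets.

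**Figure D1:**
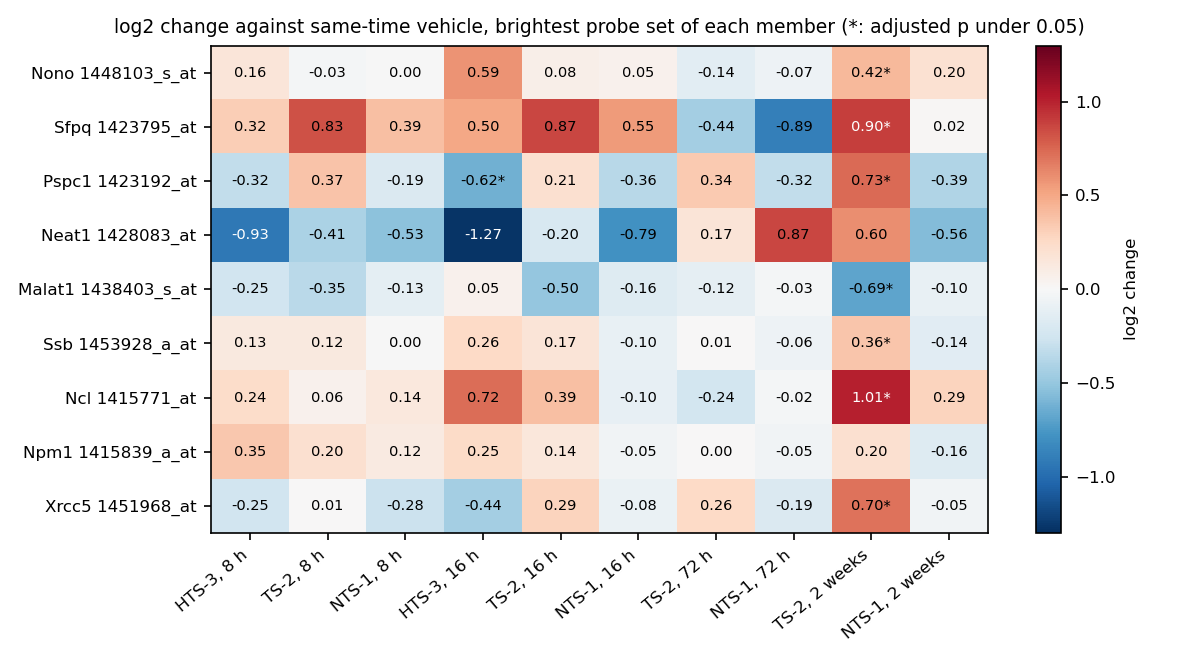
Heat map of the log2 change against vehicle of the probe set of each of the 9 members that was brightest over the single-dose arrays (rows) in the 10 comparisons with vehicle (columns); asterisks mark an adjusted p under 0.05. The column for TS-2 after 2 weeks holds 7 asterisks, with Malat1 lower and Nono, Sfpq, Pspc1, Ssb, Ncl and Xrcc5 higher, and 1 other stands at Pspc1 for HTS-3 at 16 h.

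Malat1 is a nuclear RNA that stays in the speckles and is not translated. On probe set 1429060_at the 5 TS-2 livers of the 2-week study read 48.88, 39.99, 44.12, 38.65 and 55.38. The 4 NTS-1 livers read 95.61, 60.35, 71.5 and 75.6. The 10 vehicle livers ran between 78.11 and 120.37 with a median of 103.
Every TS-2 liver lay below every NTS-1 liver and every vehicle liver, and NTS-1 overlapped vehicle. Such a separation held for 3.34% of all probe sets against vehicle and 5.24% against NTS-1. The change of TS-2 against vehicle was -1.17 ± 0.115 (2.26-fold lower, adjusted p = 7.31e-07), and against NTS-1 it was -0.73 ± 0.140 (adjusted p = 0.00182). NTS-1 itself was lower than vehicle by a log2 change of -0.44 ± 0.124 (adjusted p = 0.0479), the only member probe set called for NTS-1 at 2 weeks, where 4.23% of all probe sets were called and 2.65% were lower. That call was lost on leaving out any of 11 of the 14 mice in turn, with adjusted p between 0.056 and 0.181. Malat1 probe sets 1438403_s_at and 1452378_at were also lower in TS-2 livers, and changed by -0.69 ± 0.170 (adjusted p = 0.00322) and -0.25 ± 0.0911 (adjusted p = 0.0345). The 4 probe sets set aside were 1418189_s_at, 1418188_a_at, 1427285_s_at and 1436202_at. On 1418189_s_at no TS-2 or NTS-1 liver reached 32 and 6 of the 10 vehicle livers did. The TS-2 livers read 9.61 to 14.41, against 21.44 to 52.89 in vehicle livers. On 1418188_a_at no TS-2 liver, 1 NTS-1 liver and 3 vehicle livers reached 32, and the TS-2 livers read 14.56 to 17.95, against 17.98 to 42.64 in vehicle livers. Having been tested only because vehicle was high, neither has a test here. The call on 1452378_at was lost without any 1 of 9 of the 15 mice, with adjusted p between 0.0516 and 0.11, and with vehicle replicates 1 to 5 as the only controls (adjusted p = 0.153). Quantile normalization and the replicate number as a block ended it as well.

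**Figure D2:**
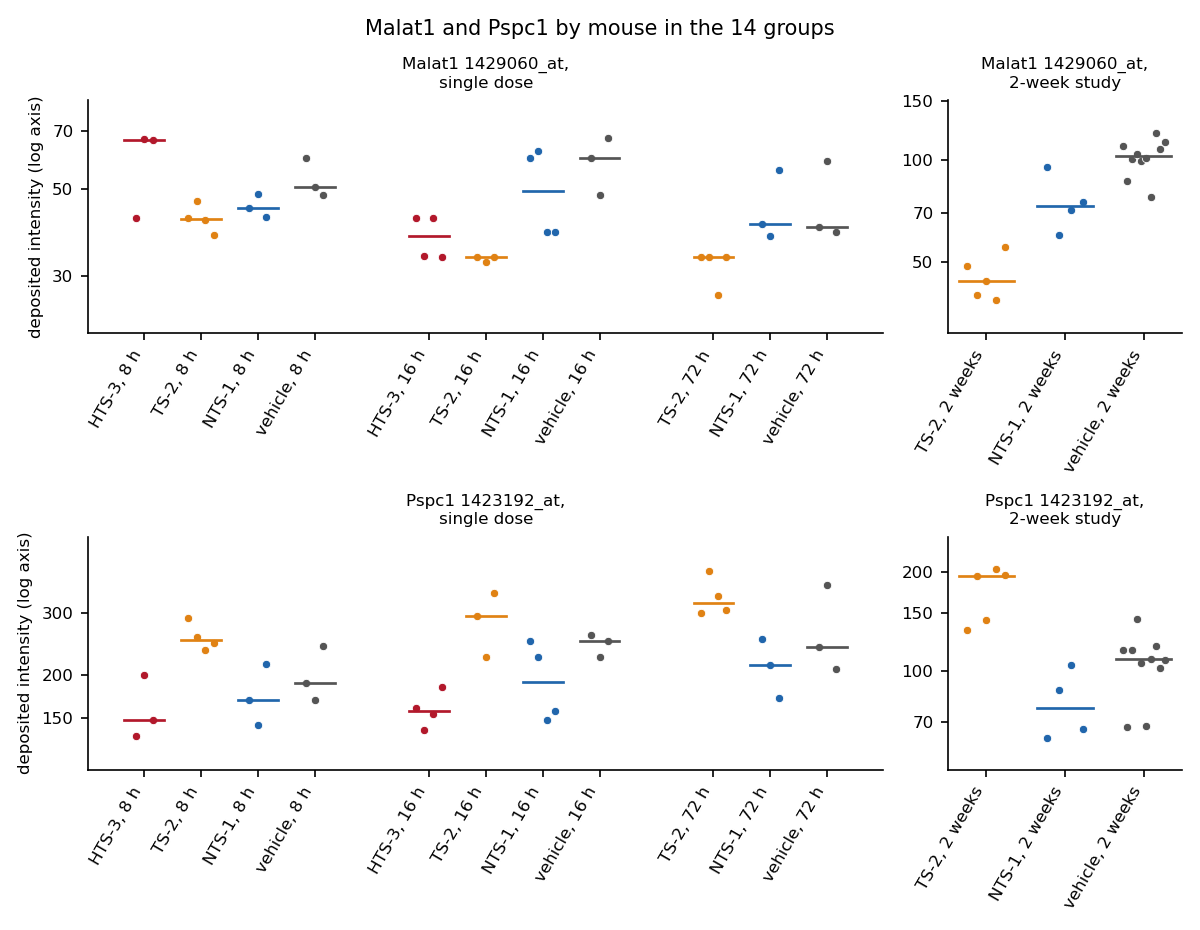
Intensity (log axis) of Malat1 probe set 1429060_at and Pspc1 probe set 1423192_at in each mouse of the 14 groups; points are mice and lines are group medians. After 2 weeks Malat1 lies between 38.65 and 55.38 in TS-2 livers, below all vehicle livers, and Pspc1 lies between 133.01 and 204.65, against 67.9 to 144.44 in vehicle livers.

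After a single dose the same Malat1 probe set was below every vehicle liver in the TS-2 mice at each time, but no difference passed the test. At 8 h the TS-2 livers read 42.02, 46.62, 41.59 and 38.04, and vehicle livers 59.8, 50.49 and 48.14. At 16 h they read 33.53, 32.55 and 33.53, and vehicle livers 59.9, 48.18 and 67.08. At 72 h they read 33.53, 33.53, 26.82 and 33.53, and vehicle livers 39.9, 58.82 and 38.69.
TS-2 lay wholly below vehicle at each of the 3 times, as did 1.71%, 4.02% and 1.64% of all probe sets. The log2 changes were -0.33, -0.80 and -0.50, with adjusted p of 1, 0.604 and 0.81. The value 33.53 recurs on 6 of the 37 arrays, which makes the spread of these values look smaller than separate measurements would. At 16 h, Malat1 1418188_a_at read 17.73, 13.51 and 12.29 in TS-2 livers, against 57.13, 41.85 and 49.78 in vehicle livers, at least 1.54-fold lower, with an adjusted p of 0.824. In HTS-3 livers at 16 h, 1 of the 3 tested Malat1 probe sets was lower. Of all probe sets there, 14.8% were called, 8.22% were called lower, and 9.92% lay wholly below vehicle. Probe set 1429060_at read 42.02, 33.69, 42.02 and 33.53 in HTS-3 livers, against 59.9, 48.18 and 67.08 in vehicle livers, all lower, with a change of -0.62 ± 0.186 (adjusted p = 0.0219). That call was lost without vehicle replicate 1 (-0.60, adjusted p = 0.0791) and without vehicle replicate 3 or HTS-3 replicates 2 or 4, each alone (adjusted p between 0.0577 and 0.121). It was also lost with the HTS-3 mouse of unsure time moved to 16 h (-0.46, adjusted p = 0.173). The brightest Malat1 probe set, 1438403_s_at, stood at 0.05 (adjusted p = 0.873) and 1418188_a_at at -0.77 (adjusted p = 0.33), both with overlapping groups.

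Neat1, the RNA on which paraspeckles assemble, was not called by limma in any comparison with vehicle, and 1 of them, HTS-3 at 16 h, had an unadjusted p under 0.05. After 2 weeks probe set 1428083_at read 197.15, 679.66, 153.36, 630.45 and 1635.18 in TS-2 livers and 181.05 to 227.97 in the 4 NTS-1 livers. The 10 vehicle livers ran between 207.94 and 466.55 with a median of 299.
In TS-2, 3 of the 5 livers lay above every vehicle liver and the other 2 below all of them, so that the change was 0.60 ± 0.381 (adjusted p = 0.232), with a 95% interval from -0.19 to 1.40. The second probe set, 1442881_at, changed by -0.11 ± 0.0854 (adjusted p = 0.334). In HTS-3 livers at 16 h the first probe set read 237.36, 314.13, 325.04 and 138.63, against 800.52, 296.66 and 826.56 in vehicle livers, which overlapped (-1.27 ± 0.448, adjusted p = 0.0538). At 8 h the HTS-3 livers read 203.27, 201.75 and 174.09, all below the vehicle livers at 314.13, 504.65 and 314.13 (-0.93, adjusted p = 0.53), as in 5.38% of all probe sets. The value 314.13 recurs on 6 of the 37 arrays.

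Among the genes of paraspeckle proteins, Pspc1 was lower in HTS-3 livers at 16 h and higher in TS-2 livers after 2 weeks. In HTS-3 livers at 16 h probe set 1423192_at read 160.43, 138.52, 154.79 and 184.07, against 259.71, 224.54 and 250.15 in vehicle livers. Every HTS-3 liver lay below every vehicle liver, as in 9.92% of all probe sets. The change was -0.62 ± 0.203 (1.54-fold lower, adjusted p = 0.0362). With Malat1 it was 1 of only 2 member probe sets of 23 called at 16 h, where 14.8% of all probe sets were called, 6.55% higher and 8.22% lower. Both calls ended without vehicle replicate 1, where 1426 of the 14324 probe sets were called and Pspc1 stood at -0.58 ± 0.233 (adjusted p = 0.128), and Pspc1 lost its call without any 1 of 6 of the 7 mice, all but HTS-3 replicate 4, with adjusted p between 0.053 and 0.128. With the Actb 3' to 5' signal ratio of each array as a covariate, 11 of the 23 were called, where 24.9% of all probe sets were, and with the compared groups fitted alone 0 were, where 2.51% of all were. That log2 ratio ran between 1.149 and 1.772 in HTS-3 livers, against 1.197 to 1.607 in vehicle livers, and its part was not tested further. TS-2 livers at 16 h read 294.57, 224.54 and 343.29, and HTS-3 was lower than TS-2 by a log2 change of -0.84 (adjusted p = 0.00479), where 12.3% of all probe sets were called, 4.06% higher and 8.27% lower. Without TS-2 replicate 3 that difference had an adjusted p of 0.0558. Malat1 1438403_s_at was in turn higher in HTS-3 than in TS-2 livers at 16 h by 0.55 (adjusted p = 0.0146), a call lost without TS-2 replicates 2 or 3 or HTS-3 replicate 1 (adjusted p between 0.063 and 0.109).
After 2 weeks Pspc1 was higher in TS-2 livers. The 5 livers read 133.01, 194.89, 143.47, 204.65 and 195.5, the 4 NTS-1 livers 62.89, 87.78, 104.78 and 66.93, and the vehicle livers 67.9 to 144.44 with a median of 109. TS-2 lay wholly above NTS-1, as in 11.1% of all probe sets, and its lowest 2 livers fell within the vehicle range. The change was 0.73 ± 0.170 against vehicle (adjusted p = 0.00205) and 1.12 ± 0.209 against NTS-1 (adjusted p = 0.00151). After a single dose of TS-2 the changes were 0.37 at 8 h, 0.21 at 16 h and 0.34 at 72 h, each with an adjusted p of 1. The other Pspc1 probe set, 1423193_at, did not reach 32 on any array.

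Nono was higher in TS-2 livers after 2 weeks by a smaller amount. Probe set 1448103_s_at read 1691.97, 2136.71, 2018.75, 1976.92 and 2181.33 in TS-2 livers, and 1237.95 to 1890.41 with a median of 1500.2 in vehicle livers. The lowest TS-2 liver lay within the vehicle range. The change was 0.42 ± 0.106 (adjusted p = 0.00373), and 1415820_x_at, which by its type may read other transcripts as well, changed by 0.51 ± 0.0963 (adjusted p = 0.000354). Against NTS-1 only the second was called (0.39, adjusted p = 0.0231). Probe sets 1431239_at and 1447160_at, both at 4.56 on nearly all single-dose arrays, were not called after 2 weeks (-0.17, adjusted p = 0.0942, and 0.05, adjusted p = 0.643). At 16 h the 2 tested Nono probe sets lay above vehicle in all 4 HTS-3 livers, by 0.59 and 0.49, without passing the test (adjusted p = 0.12 and 0.178). Of all probe sets, 11.9% lay wholly above vehicle there.

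Sfpq was higher on 3 probe sets and lower on 1 after 2 weeks of TS-2. Probe set 1423795_at read 409.91, 324.51, 526.22, 330.56 and 578.59 in TS-2 livers, and 84.84 to 371.72 with a median of 229 in vehicle livers. The groups overlapped, and the change was 0.90 ± 0.260 (adjusted p = 0.00971). Probe sets 1438458_a_at and 1423796_at rose as well, by 0.95 (adjusted p = 0.00781) and 0.52 (adjusted p = 0.00222). Probe set 1439058_at was instead lower, by -0.26 ± 0.0752 (adjusted p = 0.0101), with TS-2 livers between 37.39 and 46.52 and vehicle livers between 45.78 and 58.53. Probe sets 1438459_x_at (0.56, adjusted p = 0.0698) and 1436898_at (0.07, adjusted p = 0.864) were not called. The lower call was lost with vehicle replicates 6 to 10 as the only controls (-0.20, adjusted p = 0.0942) and with the replicate number as a block (adjusted p = 0.0694). That block also ended the call on 1423796_at (adjusted p = 0.0689). The target sequences of the Sfpq probe sets within the gene were not compared here.

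**Figure D3:**
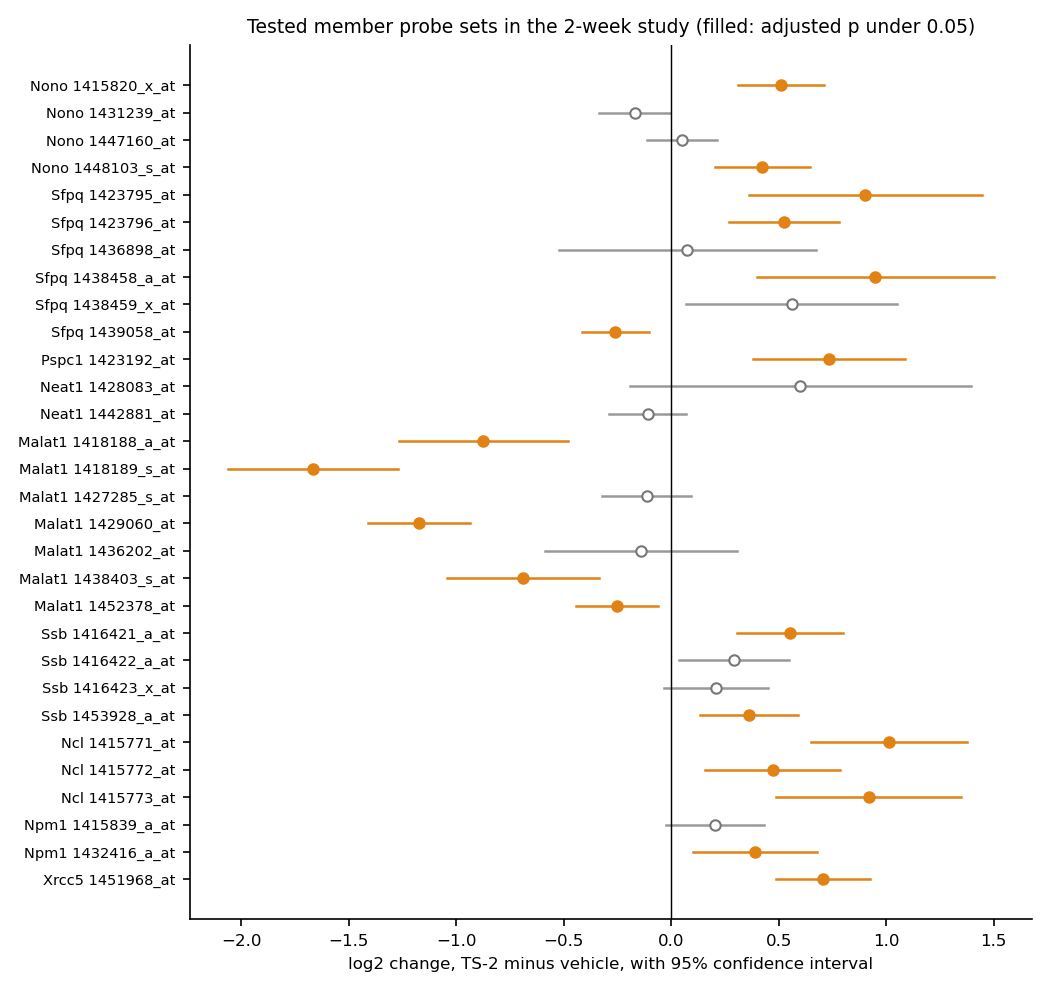
Log2 change of TS-2 minus vehicle after 2 weeks with 95% intervals for the 30 tested member probe sets; filled points have an adjusted p under 0.05. With the 4 Malat1 probe sets set aside, 13 called ones lie above 0 and 4 below, 3 of Malat1 and 1 of Sfpq. The 2 further filled points below 0 are Malat1 1418189_s_at and 1418188_a_at, tested only because vehicle livers reached 32.

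Of the genes of oligonucleotide-binding nuclear proteins, Ncl and Xrcc5 were higher in every TS-2 liver than in any vehicle liver after 2 weeks. Ncl, the nucleolar protein that binds ribosomal RNA precursors, read 1394.44, 1974.71, 1665.33, 2059.59 and 2326.64 on 1415771_at in TS-2 livers. The NTS-1 livers read 1201.56, 1346.38, 1288.44 and 774.02, and the vehicle livers 561.41 to 1245.41 with a median of 927.
Every TS-2 liver was above every NTS-1 and vehicle liver, as in 7.76% of all probe sets against vehicle and 11.1% against NTS-1. The change was 1.01 ± 0.173 (2.02-fold higher, adjusted p = 0.000141) against vehicle and 0.72 ± 0.212 (adjusted p = 0.0217) against NTS-1. The other tested Ncl probe sets, 1415773_at and 1415772_at, were higher by 0.92 (adjusted p = 0.00154) and 0.47 (adjusted p = 0.0185), also with every TS-2 liver above every vehicle liver. The call on 1415772_at was lost without TS-2 replicate 5 (adjusted p = 0.0743) and with vehicle replicates 6 to 10 as the only controls (adjusted p = 0.119). Array weights ended it as well.
Xrcc5, the Ku80 subunit that binds DNA ends, read 220.32, 196.96, 259.6, 268.52 and 250.66 in TS-2 livers. The NTS-1 livers read 120.12, 149.53, 180.18 and 122.85, and the vehicle livers 118.17 to 160.48 with a median of 150.03. TS-2 was above both groups in all 5 livers. The change was 0.70 ± 0.104 against vehicle (1.63-fold higher, adjusted p = 3.71e-05) and 0.75 ± 0.128 against NTS-1 (adjusted p = 0.000883). At 16 h it was lower in HTS-3 than in TS-2 livers by a log2 change of -0.73 (adjusted p = 0.0467), a call lost without replicates 1 or 2 of HTS-3 or 2 or 3 of TS-2 (adjusted p between 0.14 and 0.238).

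Ssb, which binds the ends of newly made small RNAs, was higher in TS-2 livers after 2 weeks on 1416421_a_at. The livers read 57.33, 68.83, 65.93, 74.81 and 60.41, against 34.23 to 53.74 in vehicle livers. All lay above vehicle, as in 7.76% of all probe sets. The change was 0.55 ± 0.118 (adjusted p = 0.00104), and 1453928_a_at changed by 0.36 ± 0.110 (adjusted p = 0.0133), a call lost without TS-2 replicate 5 (adjusted p = 0.0577) and with only vehicle replicates 6 to 10 (adjusted p = 0.0937). Quantile normalization ended the call on 1453928_a_at as well. The other Ssb probe sets changed by 0.29 (adjusted p = 0.0715) and 0.21 (adjusted p = 0.174).
Npm1, a nucleolar chaperone, read 1282, 1921.72, 1696.59, 2436.02 and 2266.18 on 1432416_a_at in TS-2 livers, against 1170.86 to 1739.06 in vehicle livers. Of the 5, 4 lay above the vehicle median, and the change was 0.39 ± 0.138 (adjusted p = 0.0321), a call lost without vehicle replicate 5 or TS-2 replicates 2, 4 or 5 (adjusted p between 0.0525 and 0.124), and with only vehicle replicates 6 to 10 (adjusted p = 0.199). Quantile normalization, array weights and the replicate number as a block each ended the call on 1432416_a_at as well. The other Npm1 probe set changed by 0.20 (adjusted p = 0.152).

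**Figure D4:**
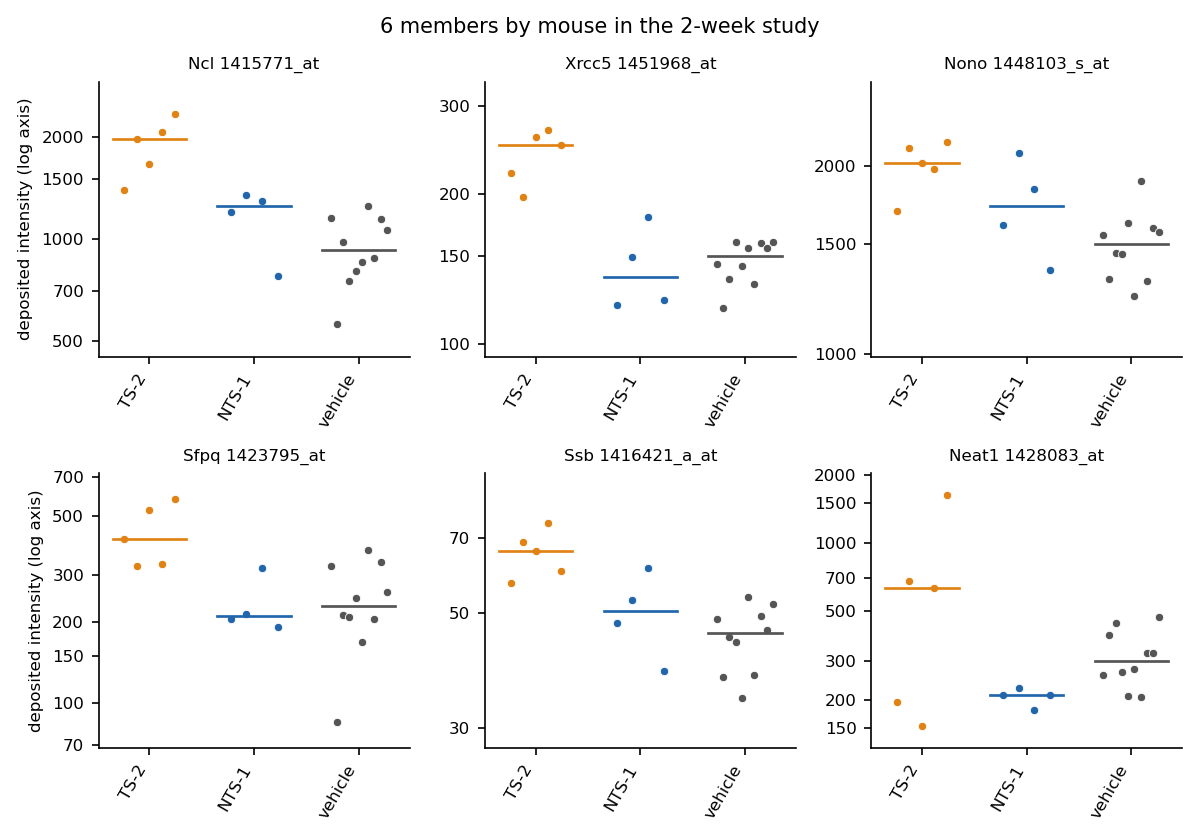
Intensity of 6 member probe sets in each mouse of the 2-week study (TS-2, NTS-1, vehicle); points are mice and lines are medians. Ncl and Xrcc5 in TS-2 livers lie above all vehicle livers, Neat1 spreads from 153.36 to 1635.18, and Nono and Sfpq overlap vehicle.

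For TS-2 against NTS-1 after 2 weeks, 3 Malat1 probe sets were left out, tested only through the brighter group or under 32 in both groups. Of the 27 other member probe sets 9 differed, 6 higher and 3 lower in TS-2. Of all probe sets, with none left out in this way, 20.8% were called, 14.3% higher and 6.45% lower. Beside the calls given above, Npm1 1432416_a_at was higher in TS-2 by 0.61 (adjusted p = 0.016) and Ssb 1453928_a_at by 0.51 (adjusted p = 0.0126). Malat1 1438403_s_at was lower by -0.60 (adjusted p = 0.0478) and Sfpq 1439058_at by -0.28 (adjusted p = 0.0394). Without NTS-1 replicate 4 the calls on Ncl, Nono, Npm1, Malat1 1438403_s_at and Sfpq were lost, with adjusted p between 0.0707 and 0.0955, and without NTS-1 replicate 1 the call on Ssb was lost (adjusted p = 0.0546). The calls on Ncl and Nono were also lost without TS-2 replicates 4 or 5, each alone (adjusted p between 0.051 and 0.0674). Those on Malat1 1438403_s_at and Sfpq were lost without any 1 of 6 and any 1 of 7 of the 9 mice. The HTS-3 and NTS-1 livers at 16 h differed in 5 member probe sets, all higher in HTS-3, where 18.8% of all probe sets were called and 9.74% were higher. These were Ssb 1416422_a_at (0.51, adjusted p = 0.00769), 1416423_x_at (0.33, adjusted p = 0.0396) and 1453928_a_at (0.36, adjusted p = 0.0494), Nono 1415820_x_at (0.67, adjusted p = 0.0351) and Ncl 1415772_at (0.48, adjusted p = 0.0482). On this Ncl probe set the value 114.41 recurs on 21 of the 37 arrays, which makes its spread look smaller. The other tested Ncl probe sets were not called (adjusted p = 0.133, 0.421 and 0.168). All 5 calls were lost without HTS-3 replicate 4, with adjusted p between 0.0511 and 0.34, and all but Ssb 1416422_a_at were lost without at least 1 NTS-1 mouse as well. In limma's tests of whether an effect differed between times, 0 member probe sets were called, with 0 to 2 at an unadjusted p under 0.05 in each, and the smallest adjusted p was 0.176 (Malat1 1429060_at, -0.74, HTS-3 at 16 h minus 8 h). Of all probe sets, 2.69% were called for HTS-3 at 16 h minus 8 h, 0.0908% for TS-2 at 72 h minus 8 h and 0.0559% for NTS-1 at 16 h minus 8 h. The other comparisons between sequences called 0 members and, of all probe sets, 0.768%, 0.419% and 0.272% for TS-2 against NTS-1 at 8, 16 and 72 h, 1.07% for HTS-3 against NTS-1 at 8 h and 0.489% for HTS-3 against TS-2 at 8 h. Among vehicle livers, Ssb 1416422_a_at was higher at 72 h than at 8 h by 0.64 (adjusted p = 0.024, with 1.81% of all probe sets called), and no other member was called between vehicle times, where 1.94% were called for 16 h against 8 h and 0.0140% for 72 h against 16 h. With each of the 6 mice left out in turn, that Ssb call held for only 1, with adjusted p between 0.0539 and 0.13 for the others. Quantile normalization, the compared groups fitted alone and the replicate number as a block each ended it as well.

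**Figure D5:**
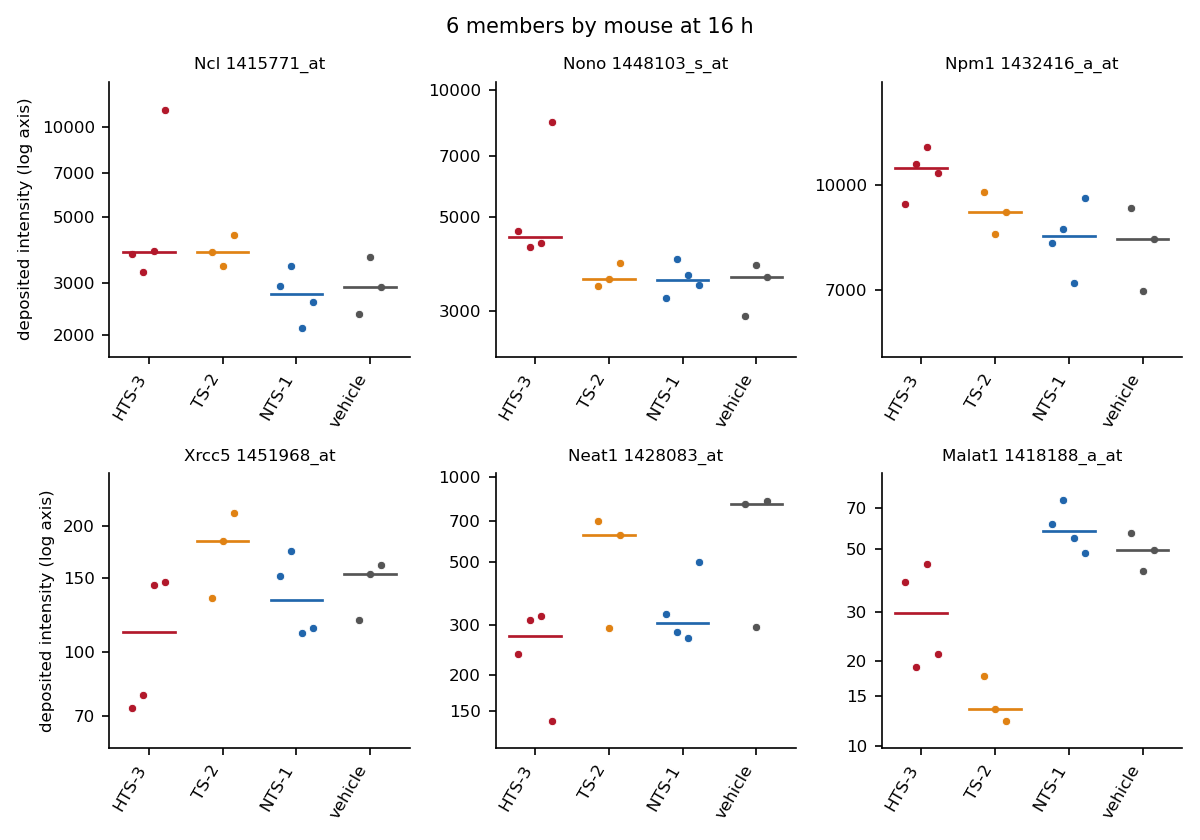
Intensity of 6 member probe sets in each mouse at 16 h (HTS-3, TS-2, NTS-1, vehicle); points are mice and lines are medians. HTS-3 replicate 4 reads 11378.8 for Ncl, above the other HTS-3 livers at 3264.75 to 3845.01, and no difference from vehicle was called for the probe sets shown.

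At 16 h, HTS-3 replicate 4 read highest of its group in several members. On Ncl 1415771_at it read 11378.8, against 3738.15, 3264.75 and 3845.01 in the other HTS-3 livers and 2348.76, 3644.2 and 2891.23 in vehicle livers. The change was 0.72 (adjusted p = 0.252). Npm1 was above vehicle in all 4 HTS-3 livers on both probe sets, by 0.36 (adjusted p = 0.0678) and 0.25 (adjusted p = 0.171). Of all probe sets, 11.9% lay wholly above vehicle there. In the comparisons of HTS-3, TS-2 and NTS-1 with vehicle at 8 h and of TS-2 and NTS-1 at 16 h and 72 h, limma called 0 member probe sets, with 0 to 3 at an unadjusted p under 0.05 in each. Of all probe sets, 0.677% were called for HTS-3, 0% for TS-2 and 0.775% for NTS-1 at 8 h, 0.00698% for TS-2 and 0.195% for NTS-1 at 16 h, and 0.251% for TS-2 and 0% for NTS-1 at 72 h.

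Markers of other cells were called in the same livers, and these counts stand against the 36.6% of all probe sets called in TS-2 livers after 2 weeks, 22.7% higher and 13.9% lower. After 2 weeks of TS-2, 5 of 8 sinusoidal endothelial markers were lower and none higher, with a summed intensity of 1046.83 to 2529.6, against 2371.25 to 3900.05 in vehicle livers. Of 8 interferon-stimulated genes tested 6 were higher, summed at 1328.84 to 5656.48, against 833.33 to 1322.39. Of 10 macrophage markers 3 were higher, summed at 2712.41 to 20188.1, against 2183.32 to 7796.98, and of 6 dividing-cell markers 2 were higher, 1 of which, Mki67, had passed the limit of 32 only through TS-2 livers, summed at 1345.11 to 1975.6, against 933.45 to 1539.91. Of the other lists tested there, hepatocyte markers had 1 higher and 2 lower of 8, stellate markers 2 higher of 8, neutrophil markers 1 lower of 8 and lymphocyte markers no call of 5. The macrophage share (30.0% higher) and the hepatocyte share (37.5% called) were near those over all probe sets. The dividing-cell share (33.3% higher) counts Mki67 and is not set against them. In NTS-1 livers 3 of 8 endothelial markers were lower, where 2.65% of all probe sets were. At 16 h of HTS-3, where 14.8% of all probe sets were called and 8.22% were lower, 3 of 5 endothelial markers were lower. The endothelial list summed at 5143.57 to 8635.21, against 8380.91 to 9819.38 in vehicle livers. Of 8 macrophage markers 3 were lower, summed at 11849.8 to 16752, against 15259.8, 17570.5 and 42767.1 in the vehicle livers. Cd14, 1 of the 3, reached 32 in no HTS-3 liver and in 1 vehicle liver. Of 4 dividing-cell markers 1 was higher and of 7 interferon-stimulated genes 1 was lower, and no hepatocyte, neutrophil, lymphocyte or stellate marker was called. Without vehicle replicate 1, 9.96% of all probe sets were called at 16 h of HTS-3, and the marker calls were not followed there. The endothelial gene Flt1 lay at 4.56 on 33 of the 37 single-dose arrays, and Pecam1 and the monocyte receptor Ccr2 reached 32 on none of them. Their part in the changes of the members was not tested.

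Other genes of the same bodies and pathways were taken from lists chosen with earlier results known. After 2 weeks of TS-2, 22.7% of all probe sets were higher and 13.9% lower. Of 28 tested genes of nucleolar proteins that make ribosomes, 16 were higher and 1 lower, with a median of 0.40. Examples were Ftsj3, an rRNA methyltransferase (1.50), Nolc1 (1.28), Nop2 (1.11) and Polr1a, the largest subunit of RNA polymerase I (0.92). The list of nuclear speckle and splicing proteins had 12 higher and 3 lower of 22 (median 0.31), among them Srsf4 (1.04), Srsf1 (0.73), Pnisr (-1.08) and the kinase Clk4 (-1.07). La and Ro partners of Ssb had 5 higher and 1 lower of 7 (median 0.50), with Larp7, which binds the 7SK RNA, at 1.16 and Larp1 at 0.92.
Genes of other proteins known to bind phosphorothioate oligonucleotides had 11 higher and 4 lower of 24 (median 0.23). Anxa2 stood at 1.66, the chaperone Hsp90aa1 at 1.03, Prkdc at -1.12 and the scavenger receptor Stab1 at -1.05. Of the end joining partners of Xrcc5, 1 of 6 was higher (Lig4, 0.71) and 1 lower (Prkdc). Genes of other paraspeckle proteins were called in both directions, 7 higher (24.1%) and 6 lower (20.7%) of 29 (median 0.05). The share of higher calls was near that over all probe sets. Zfp24 stood at -3.35, Ewsr1 at -1.34, Fam98a at 0.90 and Cpsf6 at -0.77. At 16 h of HTS-3, where 6.55% of all probe sets were higher and 8.22% lower, the nucleolar list had 6 higher and 1 lower of 28 (median 0.46, against 0.07 over all probe sets), with Nop56 at 1.22, Nop2 at 1.19 and Heatr1 at -0.88. The other paraspeckle list had 2 higher and 2 lower of 27, which is 14.8% called, as over all probe sets, with Rbm14 at 1.22, Cpsf6 at 0.77, Hnrnph3 at -1.44 and Cpsf7 at -1.02. The speckle list had 2 higher of 21, Rbm25 (1.38) and Luc7l3 (0.92), and La and Ro partners 3 higher of 7, with Ro60 at 0.92, Larp4 at 0.83 and Puf60 at 0.47. The oligonucleotide-binding list had Stab1 at 1.29 and Stab2, another scavenger receptor, at -1.53, of 22, and 1 of 4 end joining genes was called, Xrcc4, at -3.37 ± 0.319 (adjusted p = 6.34e-09). These list calls at 16 h were not followed without vehicle replicate 1. After 2 weeks of NTS-1, where 4.23% of all probe sets were called and 2.65% were lower, 4 of 29 other paraspeckle genes were called, Smarca4 at 0.49, Hnrnph1 at -0.67, Matr3 at -0.61 and Rbm7 at -0.56. In the same livers the speckle list had 3 lower of 22, with the kinase Clk1 at -0.84, Pnisr at -0.76 and Srsf11 at -0.39, and of 7 La and Ro partners Larp1 was higher at 0.62.

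Zfp24, a zinc finger protein on the paraspeckle list (1426895_at), was the 1 probe set called for TS-2 at 16 h, or 0.00698% of those tested. It read 306.05, 367.03 and 262 in TS-2 livers, against 955.1, 803.61 and 594.88 in vehicle livers (-1.32, adjusted p = 0.0108). That call was lost without vehicle replicate 1, the mouse with high neutrophil markers, where 0 of the 14324 probe sets were called. At 72 h it read 210.98, 158.99, 210.39 and 108.44 in TS-2 livers, against 759.01, 808.44 and 963.48 in vehicle livers (-2.34, adjusted p = 6.27e-09). After 2 weeks it read 46.27, 36.35, 49.92, 35.34 and 31.57 in TS-2 livers, against 190.36 to 502.01 in vehicle livers (-3.35, adjusted p = 3.57e-10). No TS-2 liver overlapped vehicle at any of these times. At 16 h, 72 h and 2 weeks, 4.02%, 1.64% and 3.34% of all probe sets lay wholly below vehicle. Zfp24 was not called against vehicle for HTS-3 or NTS-1 at 8 h or 16 h.

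The 3 genes whose levels followed each member most closely over arrays were named by Pearson correlation of log2 levels, as a description of arrays that share treatment groups. Over the 19 arrays of the 2-week study, Ncl was nearest to Wnk1 (r = 0.979), the poly(A)-binding protein Pabpc1 (0.978) and the translation factor Eif4b (0.977). Nono was nearest to Sp1 (0.961), Smc1a (0.941) and Fn1 (0.931), and Sfpq to Spty2d1 (0.942), the RNA-binding protein Elavl1 (0.937) and Shtn1 (0.923). Pspc1 was nearest to Thnsl1 (0.92), Xrcc5 to Fam216a (0.938), Ssb to Herc6 (0.905), Npm1 to Leprot (0.888), Neat1 to Nrg4 (0.876) and Malat1 to Vmn1r51 (0.824). Over the 37 single-dose arrays the nearest genes were different, with 0 shared with the 2-week study. Nono was nearest there to the splicing factor subunit Sf3a2 (0.948), Sfpq to Top1 (0.942) and Ncl to Metap2 (0.917).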

How the data were processed

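Liver RNA of 56 mice was measured on Affymetrix arrays, 1 array a mouse. The authors labelled it with 1 round of amplification, per the labels' protocols, and the deposited values are RMA intensities on a linear scale, per the submitters' processing notes, which give no version. Their lowest value on the single-dose arrays was 4.56. Log2 of the deposited values was fitted with limma 3.58.1 in R 4.3.3, the 37 single-dose arrays (11 groups) apart from the 19 2-week arrays (3 groups), with 1 spread for all groups of a study. Tested probe sets had 1 annotated gene and an intensity of 32 on at least 3 arrays. Of the 45101 probe sets, 34958 had 1 gene, 932 several and 9211 none. Comparisons numbered 24, with p adjusted within each by the Benjamini-Hochberg method at 0.05. A group under 32 on all its arrays gives only a bound, the brighter group's mean over the limit of 32, and no fold where that is under 1. The members and lists were chosen with earlier results of these data known. All 9 members are named, up to 4 called genes are named per list and comparison by size of change, and 3 likest genes per member. Samples of a group are separate mice. The procedure was tested on simulated data. Same-numbered mice did not pair: in 18 comparisons, 0 had every pair's correlation of deviations over 0.1 (-0.48 to 0.43). Arrays within a group correlated at 0.933 to 0.992 and 0 were identical. Promoter sequences are RefSeq's, build GRCm38.p6. Alternatives covered the filter, the normalization, array weights, covariates, blocks and each mouse left out.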

Additional observations from a re-analysis of the deposited data

Results flagged for a closer look

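In groups of 4 to 10 mice, 181 sets of member values were checked for a single liver far from the rest, and 23 stood apart. A chance rate of about 1 in 20 holds for separate values without ties. The sets here share mice and some hold repeated values, so the count cannot be set against that rate. Their cause was not tested.

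In the HTS-3 group at 16 h, replicate 4 read 11379 on Ncl 1415771_at (nearest 3845), 5841.8 on Ncl 1415773_at (nearest 1689.5), 4446.3 on Nono 1415820_x_at (nearest 2318.7) and 8386.6 on Nono 1448103_s_at (nearest 4636), each time the highest of its group. Replicate 1 of that group was the lowest on Ssb 1416423_x_at at 616.68 (nearest 758.68) and the highest on Sfpq 1436898_at at 54.54 (nearest 20.55) and Sfpq 1439058_at at 80.55 (nearest 56.14).

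In the TS-2 group after 2 weeks, replicate 5 was the highest on Malat1 1418188_a_at at 17.95 (nearest 15.46), Malat1 1436202_at at 48.56 (nearest 20.45), Sfpq 1436898_at at 119.11 (nearest 34.09) and Sfpq 1438459_x_at at 91.8 (nearest 45.4). NTS-1 replicate 3 was the highest after 2 weeks on Sfpq 1423796_at at 122.83 (nearest 99.24), and vehicle replicate 2 the lowest on Sfpq 1438459_x_at at 16.21 (nearest 32.03).

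In TS-2 livers at 8 h, replicate 2 read 75.59 on Sfpq 1439058_at (nearest 56.14) and 118.37 on Ncl 1456528_x_at (nearest 155.11). At 72 h, TS-2 replicate 3 read 115.69 on Ncl 1415772_at (nearest 114.41), 375.91 on Ssb 1416421_a_at (nearest 346.31) and 26.82 on Malat1 1429060_at (nearest 33.53), and replicate 4 read 5.3 on Sfpq 1436898_at (nearest 19.2). In NTS-1 livers at 16 h, replicate 2 read 125.19 on Ncl 1415772_at (nearest 114.67) and 753.72 on Sfpq 1438458_a_at (nearest 311.91), replicate 3 read 137.93 on Ncl 1456528_x_at (nearest 155.11), and replicate 4 read 36.63 on Sfpq 1436898_at (nearest 20.55). Several of these single-dose values stand beside repeated values, such as 114.41 and 155.11, where the other livers of the group hold one value.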

How the results depend on the processing

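The 41 member calls kept their direction in all alternatives tried. Of 432 values under the alternatives, 348 stayed past the threshold and 84 were lost. Of 470 values with 1 mouse left out, 378 stayed and 92 were lost, and 16 calls held throughout. These counts and those below include Malat1 1418189_s_at and 1418188_a_at, whose testing rested on the brighter group. Setting such probe sets aside, a choice made after seeing the data, left 17 calls for TS-2 against vehicle and 9 for TS-2 against NTS-1 at 2 weeks, and changed no other count. Counts of member probe sets called that moved by over 1.5 times are given by setting, and the cause was not tested.

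With array weights, HTS-3 against vehicle at 16 h had 6 calls, TS-2 at 16 h 4, NTS-1 at 16 h 1, NTS-1 at 2 weeks 2, TS-2 against NTS-1 at 16 h 3, HTS-3 against NTS-1 at 16 h 2, and vehicle 5 at 16 h against 8 h, 4 at 72 h against 8 h and 2 at 72 h against 16 h. With the Actb ratio as covariate, HTS-3 at 16 h had 11, NTS-1 at 2 weeks 2, HTS-3 against NTS-1 12, HTS-3 against TS-2 5, HTS-3 at 16 h minus 8 h 1, and vehicle at 72 h against 8 h 2. With the earlier filter at the 40th percentile, HTS-3 at 16 h had 1 and HTS-3 against NTS-1 1, and with no filter 1, 1 and, for NTS-1 at 2 weeks, 0. With 1 probe set per gene, TS-2 at 2 weeks had 7, TS-2 against NTS-1 5, NTS-1 0, HTS-3 against NTS-1 at 16 h 1 and vehicle at 72 h 0. With quantile normalization, HTS-3 against NTS-1 had 3, HTS-3 at 16 h minus 8 h 1 and vehicle at 72 h 0. With the compared groups fitted alone, HTS-3 against vehicle, NTS-1 and TS-2 at 16 h each had 0, TS-2 against NTS-1 at 16 h 1 and vehicle at 72 h 0. With the replicate number as a block, which the pairing check does not bear out, these 3 HTS-3 comparisons again had 0, NTS-1 at 2 weeks 0, TS-2 against NTS-1 at 2 weeks 4, vehicle at 72 h 0 and TS-2 against vehicle at 2 weeks 16. With HTS-3 8 h replicate 3 moved to 16 h, HTS-3 against NTS-1 had 2. With vehicle replicates 1 to 5 or 6 to 10 alone, NTS-1 at 2 weeks had 0 and 0. With 6 to 10 alone the TS-2 calls on Ncl 1415772_at, Npm1 1432416_a_at, Ssb 1453928_a_at and Sfpq 1439058_at were lost, and with 1 to 5 alone that on Malat1 1452378_at.

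With each mouse left out, counts ranged from 15 to 19 for TS-2 at 2 weeks, 5 to 14 for TS-2 against NTS-1 at 2 weeks, 0 to 3 for HTS-3 at 16 h, 0 to 4 for HTS-3 against TS-2 and against NTS-1 at 16 h, and 0 to 1 for NTS-1 at 2 weeks, TS-2 against NTS-1 at 16 h and vehicle at 72 h against 8 h. Across all probe sets, HTS-3 at 16 h had 2116 calls, 3404 with array weights, 3564 with the Actb ratio, 359 fitted alone and 2 with the block. Signal near 32, repeated values and 3 or 4 mice a group limit the single-dose comparisons.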
